A study of Mus musculus with 22 samples.

Results

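The genes described here encode 8 ion channel subunits of the heart (Kcnj2, Kcnip2, Kcnd2, Kcnq1, Kcnh2, Kcnj11, Hcn2 and Hcn4) and the gap junction protein connexin-43 (Gja1). They were taken by symbol, through the RefSeq accession that the array design gives for each probe. Of the 9 genes, 8 had a probe and 7 entered the tests, out of 15503 genes tested in all. Heart RNA came from 22 female C57BL/6 mice, bought at 5 to 7 weeks of age and kept for 1 to 3 weeks before use. Each mouse received a single instillation of 40 µl into the trachea, holding either titanium dioxide particles of nanometre size (nano-TiO2, 162 µg) or the vehicle alone, a solution that held acellular lavage fluid from the lung. Hearts were collected 1 day later from 5 control and 5 nano-TiO2 mice, and 28 days later from 6 control and 6 nano-TiO2 mice. RNA of 1 mouse was labelled with Cy5 on each Agilent 2-colour array and hybridised against the same Cy3-labelled reference RNA, pooled from 11 mouse cell lines. Values are log2 ratios of heart to reference.

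A heartbeat starts in pacemaker cells, spreads from cell to cell through gap junctions, and ends in each cell when potassium channels bring the membrane back to rest. The transient outward current, built from a pore subunit such as Kcnd2 and the accessory protein Kcnip2, shapes the early phase of repolarisation and dominates it in the mouse ventricle. Kcnh2 and Kcnq1 carry the rapid and the slow delayed rectifier currents, Kcnj2 the inward rectifier that holds the resting potential, and Kcnj11 the pore of the ATP-sensitive channel. Hcn2 and Hcn4 carry the pacemaker current, and connexin-43 is the main gap junction protein of the working ventricle.

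The hybridised RNA carried the markers of heart muscle. The cardiac troponin gene Tnnt2 lay 5.66 ± 0.22 (SD, n = 22) and the cardiac actin gene Actc1 5.96 ± 0.36 (SD, n = 22) above the reference in log2, both well above background on 22 of 22 arrays. Myh6, also chosen to check the tissue, lay 7.00 ± 0.23 and 4.95 ± 0.25 (SD, n = 22) above it on its probes, likewise on 22 of 22 arrays. The surfactant genes Sftpc and Sftpb of the lung, the organ that the extraction text of the labels names, were above background on 0 of 22 arrays. Of 5 lung epithelium markers listed, 1 was tested. It read 3.55 and 3.13 in day 28 control replicates 1 and 5, relative to the mean of all mice, and -0.83 to 0.11 elsewhere. The mean of 3 liver markers was 3.30 and 3.67 in day 28 control replicates 1 and 4, and -1.30 to 1.96 elsewhere. These 2 lists chose the 3 arrays left out below for most liver or lung transcripts. The number of probes above background in Cy5 ran from 13477 to 21753 per array, with the dimmest 2 arrays both day 1 controls (replicates 4 and 5). Precision is limited by the number of arrays in each group. In bulk heart RNA, fewer cells of a type and less RNA per cell cannot be told apart.

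Promoter sequences are given for the 4 members that had an unadjusted p under 0.05 in a comparison below or passed a test once the dimmest arrays were left out. Each is 300 bases, from 250 before to 50 after a transcript start, 5′ to 3′ on the strand of the gene, from the RefSeq promoter table for GRCm38.p6. Capitals mark matches on either strand to the GC box GGGCGG, the box CCAAT, the GATA motif AGATAA, the TATA box TATAAA and the E-box CACGTG.
Kcnip2, chr19:45816014-45816313, minus strand: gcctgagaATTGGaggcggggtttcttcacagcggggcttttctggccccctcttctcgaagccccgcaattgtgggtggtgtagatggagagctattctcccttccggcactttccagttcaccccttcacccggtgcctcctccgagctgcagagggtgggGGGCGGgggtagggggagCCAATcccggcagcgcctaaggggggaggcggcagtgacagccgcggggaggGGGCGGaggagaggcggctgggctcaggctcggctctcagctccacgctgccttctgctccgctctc
Hcn2, chr10:79716384-79716683, plus strand: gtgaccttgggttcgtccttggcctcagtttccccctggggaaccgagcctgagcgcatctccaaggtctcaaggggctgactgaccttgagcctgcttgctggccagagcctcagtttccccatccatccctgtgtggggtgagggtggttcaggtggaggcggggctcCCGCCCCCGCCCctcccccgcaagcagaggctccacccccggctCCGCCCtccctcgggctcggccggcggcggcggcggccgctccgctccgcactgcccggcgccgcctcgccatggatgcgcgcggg
Gja1, chr10:56377050-56377349, plus strand: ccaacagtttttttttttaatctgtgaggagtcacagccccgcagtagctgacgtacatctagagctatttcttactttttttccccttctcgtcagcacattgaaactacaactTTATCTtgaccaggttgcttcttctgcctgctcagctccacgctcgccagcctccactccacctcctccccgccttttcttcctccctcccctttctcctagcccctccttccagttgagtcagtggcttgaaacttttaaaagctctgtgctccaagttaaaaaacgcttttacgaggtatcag
Kcnh2, chr5:24329542-24329841, minus strand: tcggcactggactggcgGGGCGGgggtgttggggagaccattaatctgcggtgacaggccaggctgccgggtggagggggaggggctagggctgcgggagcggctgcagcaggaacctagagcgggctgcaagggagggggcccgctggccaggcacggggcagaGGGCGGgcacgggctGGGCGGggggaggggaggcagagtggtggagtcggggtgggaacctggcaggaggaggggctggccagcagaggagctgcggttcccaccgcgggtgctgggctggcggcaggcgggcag
The windows of Kcnip2, Hcn2 and Kcnh2 were rich in G and C (67.0%, 72.3% and 74.3%), against a median of 52.7% over the 32851 promoters in the table, and held 18, 26 and 19 CG pairs against a median of 7. The Gja1 window stood apart from these with 47.7% G and C and 8 CG pairs. GGGCGG or its reverse, found in 35.7% of all promoters of this length, occurred 2 times for Kcnip2, 3 times for Hcn2 and 3 times for Kcnh2, with 0 matches for Gja1. The Gja1 window held 1 AGATAA match, on the other strand (11.2% of promoters have one), and that of Kcnip2 held 2 CCAAT matches (37.4%). The starts used for Kcnh2 and Kcnip2 lie inside the annotated genes, so other transcripts of these genes may start elsewhere. These matches are letters in the sequence and show no binding.

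Not every member could be measured. The Kcnj2 probe was well above background in heart RNA on 0 of 22 arrays, with net Cy5 signals from -0.5 to 21 (median 8), and it was not tested. No probe could be assigned to Hcn4, which was not analysed here. Kcnd2 had 2 probes, and the brighter of them stands for the gene. Kcnip2 and Hcn2 were dim, with net Cy5 signals from 18.5 to 89.5 and from 15 to 73. Since an offset of 50 is added to both channels before the ratio is taken, differences of these genes are compressed. Kcnip2 and Kcnd2 were above background in heart RNA on all 22 arrays but in the reference on 2 and 1 of 22, so their ratios are close to the heart signal over a floor.

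**Figure D1:**
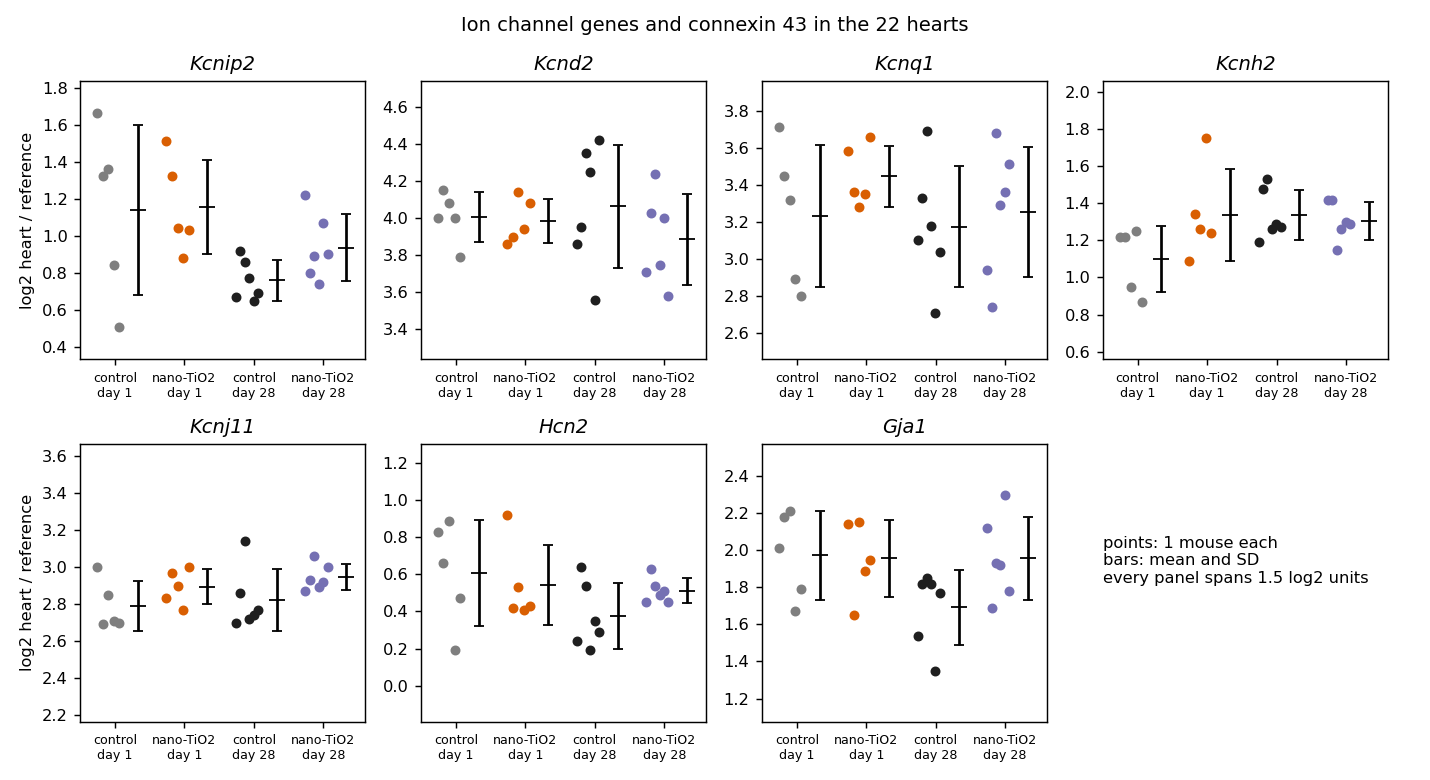
Log2 ratio of heart to reference (vertical axis) for the 7 tested genes in the 4 groups (horizontal axis). Each point is 1 mouse, and bars give the mean and SD of 5 or 6 mice. The groups overlap in every panel, and the widest spread is that of Kcnip2 in day 1 controls, from 0.51 to 1.66.

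The first comparison asked whether these genes differed from control 1 day after nano-TiO2. None of the 7 passed an adjusted p of 0.05 in limma, as was true of 0% of all 15503 genes (8.63% of genes had an unadjusted p under 0.05). Kcnh2 was the only member under that unadjusted level. Its values were 1.22, 1.22, 0.95, 1.25 and 0.87 in the controls. In the treated mice they were 1.09, 1.34, 1.26, 1.75 and 1.24. The groups overlapped, as they did for all 7 members at day 1 (1.7% of genes did not overlap), and 1 treated mouse at 1.75 stood above all others. The difference was 0.23 ± 0.11 (SE; 95% interval 0.01 to 0.46; 1.18-fold), with limma's adjusted p = 0.548. Within the 3 scan days, each of which held all 4 groups, it ranged from 0 to 0.43, and on 4 slides with both groups from -0.13 to 0.50, higher on 3 of them. It was 0.13 without the treated mouse at 1.75, and reached 0.29 without another treated mouse.

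The subunits of the transient outward current lay close to control at day 1. Kcnip2 read 1.66, 1.32, 1.36, 0.84 and 0.51 in the controls and 1.51, 1.32, 1.04, 0.88 and 1.03 after nano-TiO2. The treated values lie inside the range of the controls. Its difference was 0.02 ± 0.16 (SE; 95% interval -0.32 to 0.35), and without the 2 dimmest arrays it was -0.29. Kcnd2 differed by -0.02 ± 0.14 (95% interval -0.31 to 0.27), and its second probe by 0.05. Both genes had an adjusted p above 0.97 at day 1 in limma.

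The other members at day 1 likewise did not pass. Kcnq1 differed by 0.21 ± 0.19 (95% interval -0.18 to 0.60), with controls from 2.80 to 3.71 and treated mice from 3.28 to 3.66. Without the 2 dimmest control arrays, which held its 2 lowest control values, the difference was -0.05. Kcnj11, with the smallest spread between mice of all members (SD 0.12 within groups), differed by 0.10 ± 0.08 (-0.07 to 0.28). Hcn2 differed by -0.07 ± 0.12 (-0.31 to 0.18). Gja1 read 2.01, 2.18, 2.21, 1.67 and 1.79 in the controls and 2.14, 1.65, 2.15, 1.89 and 1.95 in the treated mice, almost the same span. Its difference was -0.01 ± 0.13 (-0.29 to 0.26). The intervals leave room for changes of these sizes, so the test does not show that the levels were equal.

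**Figure D2:**
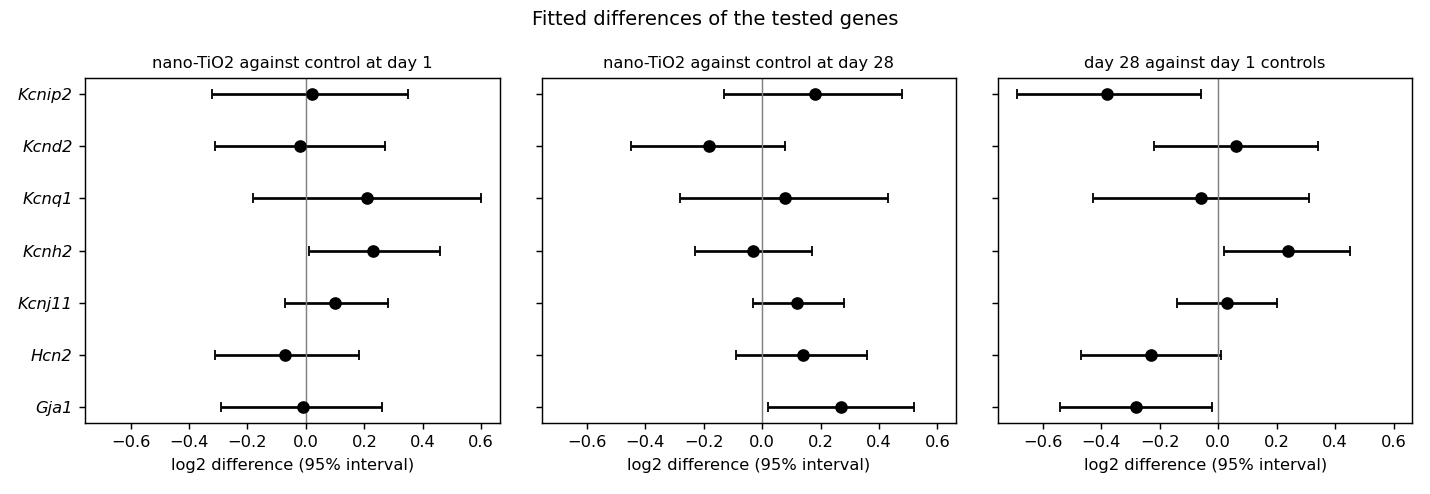
Fitted log2 differences of the 7 tested genes (points) with 95% intervals (bars), for nano-TiO2 against control at day 1 and day 28 and for day 28 against day 1 controls. The interval lies off 0 for Kcnh2 at day 1 (0.01 to 0.46), for Gja1 at day 28 (0.02 to 0.52), and for Kcnip2, Kcnh2 and Gja1 between control days, before adjustment over all genes.

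At day 28 the question was whether any difference was present at the later time. Again 0 of 7 members passed, against 0% of all genes (7.59% with an unadjusted p under 0.05), and Gja1 alone had an unadjusted p under 0.05. Connexin-43 read from 1.35 to 1.85 in the controls (median 1.79) and from 1.69 to 2.30 after nano-TiO2 (median 1.92). The groups overlapped, as for all 7 members (0.116% of genes did not), although 4 of 6 treated mice lay above every control of that day. The difference was 0.27 ± 0.12 (SE; 95% interval 0.02 to 0.52; 1.20-fold), with limma's adjusted p = 0.647. It was higher after nano-TiO2 in 3 of 3 scan days (0.09 to 0.48) and on 5 of 6 slides (-0.12 to 0.95). Over 42 alternatives in processing and arrays, the difference ran from 0.11 to 0.37. The lowest Gja1 controls, replicate 5 (1.35) and replicate 1 (1.54), were the arrays with the lung marker at 3.13 and 3.55. The part of lung or liver transcripts in the Gja1 difference was not tested. The array carries 10 spots of the Gja1 probe, whose SD within an array ran from 0.05 to 0.48 (median 0.12), against an SD of 0.22 between mice of a group.

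The day 28 difference in Gja1 was set beside the levels of its own controls. Mean Gja1 was 1.97 ± 0.24 (SD, n = 5) in day 1 controls, 1.95 ± 0.21 (SD, n = 5) and 1.96 ± 0.22 (SD, n = 6) in the nano-TiO2 groups of day 1 and day 28, and 1.69 ± 0.20 (SD, n = 6) in day 28 controls. The day 28 controls had the lowest mean of the 4 groups, and the means of the other 3 groups lay closer together than their SDs. The difference between the day 28 and the day 1 effect was 0.28 ± 0.18 (SE; -0.09 to 0.65; limma's adjusted p = 0.484), so a change in effect with time was not shown. For Kcnh2 the same difference was -0.27 ± 0.14 (SE; adjusted p = 0.405). No member passed this test (0% of all genes did; 14.8% had an unadjusted p under 0.05).

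Among the potassium channel members at day 28, the largest differences were those of Kcnip2 and Kcnd2, with opposite signs. Kcnip2 read 0.65 to 0.92 in the controls (median 0.73) and 0.74 to 1.22 after nano-TiO2 (median 0.89). It differed by 0.18 ± 0.15 (SE; -0.13 to 0.48). Kcnd2 differed by -0.18 ± 0.13 (-0.45 to 0.08), and its second probe by -0.09. Kcnj11 differed by 0.12 ± 0.08 (-0.03 to 0.28), Kcnq1 by 0.08 ± 0.17 (-0.28 to 0.43) and Kcnh2 by -0.03 ± 0.10 (-0.23 to 0.17). Hcn2 ranged from 0.19 to 0.64 in the controls (median 0.32) and from 0.45 to 0.63 after nano-TiO2 (median 0.50), a difference of 0.14 ± 0.11 (-0.09 to 0.36). The adjusted p of the 7 members ran from 0.647 to 0.954 in limma.

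Members were also compared between the control days, since both treatment comparisons rest on those groups. Here 10.5% of all genes passed the adjusted threshold (7.02% higher and 3.44% lower at day 28) and 25.4% had an unadjusted p under 0.05. Of the 7 members 0 passed, and 3 (Kcnip2, Gja1 and Kcnh2) had an unadjusted p under 0.05. Kcnip2 differed by -0.38 ± 0.15 between day 28 and day 1 controls (SE; -0.69 to -0.06; 0.770-fold; limma's adjusted p = 0.121). Its mean was 1.14 ± 0.46 (SD, n = 5) at day 1 and 0.76 ± 0.11 (SD, n = 6) at day 28, and the groups overlapped, as for all 7 members (7.01% of genes did not). Gja1 differed by -0.28 ± 0.13 (-0.54 to -0.02; adjusted p = 0.164) and was lower at day 28 in 3 of 3 scan days (-0.41 to -0.17). Kcnh2 differed the other way, by 0.24 ± 0.10 (adjusted p = 0.146). Hcn2 differed by -0.23 ± 0.12 (adjusted p = 0.213), with values of 0.83, 0.66, 0.89, 0.19 and 0.47 in day 1 controls. Kcnd2, Kcnq1 and Kcnj11 differed by 0.06 ± 0.13, -0.06 ± 0.18 and 0.03 ± 0.08.

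These control values depended on 2 arrays. Day 1 control replicates 4 and 5, the dimmest of the 22, held the lowest values of their group for Kcnip2 (0.84 and 0.51), Hcn2 (0.19 and 0.47), Gja1 (1.67 and 1.79) and Kcnq1 (2.89 and 2.80). Without them, an alternative chosen after the data were seen, 3 of 7 members passed, against 13.4% of all genes. Since these arrays held the lowest values, leaving them out could only move the differences of these genes further down. The passes are therefore no separate support. Kcnip2 then differed between day 28 and day 1 controls by -0.69 (limma's adjusted p = 0.00399), Hcn2 by -0.42 (adjusted p = 0.0192) and Gja1 by -0.44 (adjusted p = 0.0368). The 10 Gja1 spots had an SD of 0.48 on replicate 4, and the 8 used on replicate 5 an SD of 0.28. Without replicate 5 alone, Kcnip2 passed (-0.53, adjusted p = 0.0167), as did 1656 of the 15503 genes, whereas without replicate 1 its difference was -0.25 and did not pass. Within scan days Kcnip2 differed by -0.69 to -0.01, and on 3 slides with both control groups by -0.64 to 0.14. Under 2 other alternatives the 3 differences were nearer 0 than over all arrays with loess, and 0 of 7 members passed. Without the 3 day 28 controls with the most liver or lung transcripts, also chosen after the data were seen, Kcnip2 differed by -0.31 (adjusted p = 0.477), Hcn2 by -0.12 (adjusted p = 0.765) and Gja1 by -0.16 (adjusted p = 0.666), and 0.0452% of all genes passed. With median centring in place of loess, the differences were -0.25, -0.11 and -0.05, and 0.561% of all genes passed. These 3 values stand beside a shift of all genes, whose median was 0.13 with median centring and 0 with loess. They therefore do not show that the members moved nearer to the typical gene. The brightness of the arrays, as the 75th percentile of net Cy5 signal, had a median of 55 in day 1 controls (31 to 88) and 73.8 in day 28 controls (42.2 to 128).

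**Figure D3:**
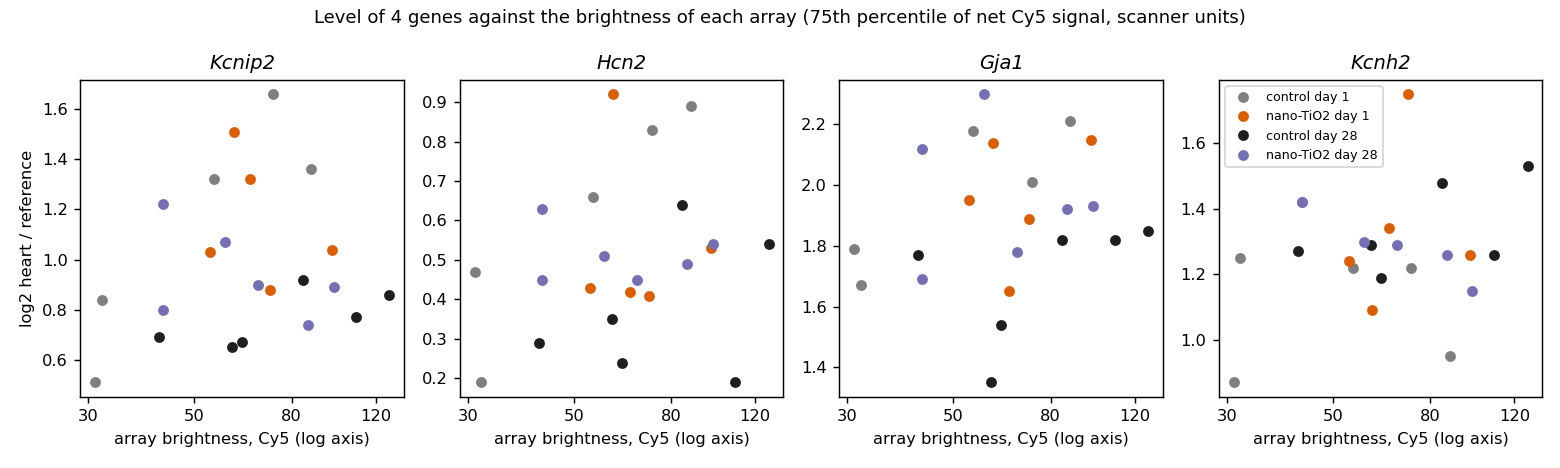
Log2 ratio of heart to reference (vertical axis) against array brightness, the 75th percentile of net Cy5 signal in scanner units (horizontal log axis), for Kcnip2, Hcn2, Gja1 and Kcnh2. Each point is 1 mouse, coloured by group. In the panels of Kcnip2, Hcn2 and Gja1, the dimmest day 1 controls lie below the other 3 day 1 controls. Across all 22 arrays, with group means removed, none of these 3 genes passed in its correlation with brightness (r = 0.384, 0.441 and 0.426). Within scan days of 6 to 8 arrays, r was 0.436 to 0.899 for Kcnip2, 0.374 to 0.85 for Hcn2 and 0.159 to 0.47 for Gja1.

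Several lists of cell type markers moved between the same control groups. Mean log2 levels of 7 adipocyte markers ran from -2.51 to -1.15 in day 1 controls and from 0.04 to 2.99 in day 28 controls, relative to the mean of all mice. Those of 7 atrial markers ran from -2.80 to 0.08 and from 0.59 to 1.16, and those of 6 smooth muscle markers from -1.18 to -0.69 and from 0.38 to 1.06. Those of 3 sinoatrial node and conduction markers ran from -0.70 to -0.10 and from 0.21 to 0.50, those of 6 fibroblast markers from -0.53 to -0.12 and from 0.09 to 0.52, and those of 4 neuron and glia markers from -0.38 to -0.25 and from -0.02 to 0.47. Those of 4 ventricular markers ran the other way, from 0.07 to 0.31 and from -0.35 to -0.04. Other lists overlapped between these groups. Endothelial markers ran from -0.28 to 0.38 and from -0.35 to 0.20, and erythroid markers from -0.46 to 0.14 and from -0.41 to 0.11. Skeletal muscle markers ran from -0.09 to 0.23 and from -0.35 to -0.01. Liver markers ran from -0.73 to 0.51 and from -1.30 to 3.67, and the lung marker from -0.53 to 0.11 and from -0.48 to 3.55. Of the 7 adipocyte markers tested, 1 to 5 were above background in day 1 controls and all 7 in each day 28 control. Their part in the differences of Kcnip2, Hcn2 and Gja1 was not tested.

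Members were next compared with each other across mice, after the mean of each group was removed. Of 28 relations computed (21 between members and 7 with array brightness), 2 passed by Pearson's r. Kcnq1 and Kcnj11 correlated at r = 0.678 (n = 22; permutation p = 0.00163, adjusted p = 0.0409; 100000 resamples) and at Spearman's rho = 0.554 (permutation p = 0.0115, adjusted p = 0.122). Without the 2 mice farthest from the median of Kcnq1, r was 0.664, and within the 3 scan days it was 0.824, 0.446 and 0.792. Kcnq1 also correlated with the brightness of the array, at r = 0.692 (permutation p = 0.00292, adjusted p = 0.0409; rho = 0.652, permutation p = 0.00506, adjusted p = 0.122). Its r without the 2 arrays farthest from the median was 0.737, and 0.631, 0.935 and 0.595 within scan days. Kcnj11 correlated with brightness at r = 0.519 (permutation p = 0.033, adjusted p = 0.116), and the part of brightness in the relation of Kcnq1 and Kcnj11 was not tested. The r with brightness was 0.384 for Kcnip2, 0.441 for Hcn2, 0.426 for Gja1, 0.282 for Kcnd2 and 0.0534 for Kcnh2. None of these passed (permutation adjusted p from 0.174 to 0.864). Kcnip2 and Hcn2, both dim, correlated at r = 0.643 (permutation p = 0.0158, adjusted p = 0.116), and Kcnip2 and Gja1 at r = 0.522 (permutation p = 0.0267, adjusted p = 0.116). Kcnh2 had an r near 0 with all 6 other members, from -0.1 with Hcn2 to 0.111 with Kcnj11.

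The genes whose values over the 22 arrays were most like those of each member were named from 10351 candidates with a symbol, by r after removal of group means. For Kcnip2 these were Map1lc3a (0.934), Msantd3 (0.913) and Fbxl22 (0.909), and for Kcnq1 they were Rassf3 (0.934), Extl3 (0.932) and Cdip1 (0.931). For Gja1 they were Tpd52l1 (0.821), Tnnt1 (0.816) and Sdha (0.808), and for Hcn2 Aamdc (0.877), Atg2a (0.827) and Plxnb1 (0.826). Nmb (0.857), Higd1b (0.781) and Tmem204 (0.775) were nearest to Kcnj11, and Syf2 (0.795), Camk1 (0.785) and Gucy1b2 (0.776) to Kcnd2. Kcnh2 had lower values, with Yars (0.676), Nkapd1 (0.644) and Srm (0.599). These r are descriptions over arrays that also share brightness.

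The members were set against a wider list of 42 genes of the same machinery, of which 39 had a probe and 30 were tested. The list covers further potassium, sodium, calcium and pacemaker channel subunits, connexins, intercalated disc proteins and membrane scaffolds. At day 1, 0 of 30 passed and 7 had an unadjusted p under 0.05 (8.63% of all genes did), and the median difference was 0.07 against 0.01 over all genes. Gja5, Gja4 and Kcnj8 were among those with the smallest p. Gja5, connexin-40 of atria, conduction system and arterial endothelium, differed by 1.66 ± 0.54 (SE; limma's adjusted p = 0.478), with 1.15 to 2.13 in controls and 1.39 to 4.49 in treated mice, while its other probe gave 0.13. Mean atrial markers were -1.14 in these controls (-2.80 to 0.08) and 0.05 in the treated mice (-2.91 to 0.98). Smooth muscle markers were -0.99 and 0.15, and adipocyte markers -2.19 and 0.21, and their part in the day 1 differences was not tested. Gja4, a connexin of arterial endothelium, differed by 0.37 ± 0.14, and the vascular ATP-sensitive channel pore Kcnj8 by -0.26 ± 0.11.

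At day 28, 0 of 30 passed and 2 had an unadjusted p under 0.05 (7.59% of all genes did), and the median was 0.01 against -0.01 over all genes. Kcnab1, a cytoplasmic beta subunit of potassium channels, differed by -0.41 ± 0.12 (SE; limma's adjusted p = 0.637), and Pkp2, a desmosomal protein of the intercalated disc, by 0.29 ± 0.11 (adjusted p = 0.637). Abcc9, the sulfonylurea receptor that partners Kcnj11 or Kcnj8, differed by 0.31 ± 0.16 (0.27 and 0.06 on its other probes), and Kcnj3, an atrial channel subunit opened by acetylcholine signalling, by -0.35 ± 0.18. Mean adipocyte markers were 1.73 in the controls of that day (0.04 to 2.99) and -0.08 in the treated mice (-2.39 to 1.96), and atrial markers 0.85 and 0.06, and their part in the day 28 differences was not tested. For the difference between the effects 0 of 30 passed and 9 had an unadjusted p under 0.05 (14.8% of all genes did). Leaving out nano-TiO2 day 1 replicate 1 brought 3 of the 30 past the threshold in that last test, Gja5 (-2.96), Kcnab1 (-0.74) and Pkp2 (0.63), along with 311 of all 15503 genes.

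Between control days 8 of the 30 passed (26.7%, against 10.5% of all genes), 3 higher and 5 lower at day 28, with a median of -0.10 against 0.00 over all genes. The list was chosen with earlier results of these data known, so the larger share is a description and no test of the list. Gja5 rose by 2.42 ± 0.52 (SE; limma's adjusted p = 0.00642), from 1.15 to 2.13 in day 1 controls and 3.46 to 4.70 in day 28 controls, groups that do not overlap, while its other probe gave 0.10. Kcnab1 rose by 0.65 ± 0.12 (adjusted p = 0.00366), and was above background on 2 of 5 and 6 of 6 arrays. Kcnj8 lay between 6.20 and 6.50 in day 1 controls and between 5.59 and 6.00 in day 28 controls, again without overlap. Its difference was -0.49 ± 0.11 (adjusted p = 0.00778; -0.51 on its other probe). Pkp2 differed by -0.50 ± 0.11 (adjusted p = 0.00827), from 2.77 to 3.03 in day 1 controls to 2.16 to 2.58 at day 28.

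The other 4 that passed were named after their values were seen, and 2 of them encode direct partners of members. Kcne1, the subunit that joins Kcnq1 in the slow delayed rectifier, lay between 2.74 and 3.59 in day 1 controls and between 1.86 and 2.73 in day 28 controls. It differed by -0.77 ± 0.20 (SE; limma's adjusted p = 0.0187), and by -0.55 without the 2 dimmest arrays (adjusted p = 0.114), while Kcnq1 itself differed by -0.06 ± 0.18. Abcc9 differed by -0.66 ± 0.17 (adjusted p = 0.0139; -0.45 and -0.20 on its other probes), while Kcnj11 differed by 0.03 ± 0.08. The caveolar scaffold Cav3 differed by -0.35 ± 0.09 (adjusted p = 0.0176). Cacna1h, a T-type calcium channel, differed by 1.06 ± 0.30 (adjusted p = 0.0284) and was above background on 1 of 5 day 1 and 6 of 6 day 28 arrays.

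Without 3 day 28 controls whose hearts carried the most liver or lung transcripts (replicates 1, 4 and 5, chosen after the data were seen), 0 of the 30 passed, and 0.0452% of all genes (12 of the 30 and 2349 of all genes had an unadjusted p under 0.05). With slide as a fixed term 0 of the 30 passed, and 0% of all genes (9 of the 30 and 2810 of all genes had an unadjusted p under 0.05). Without the 3 arrays the 8 genes kept their direction, with differences from -0.65 for Kcne1 to 2.54 for Gja5. The adipocyte, atrial and smooth muscle markers given above moved between the same groups, and their part in the 8 calls was not tested.

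**Figure D4:**
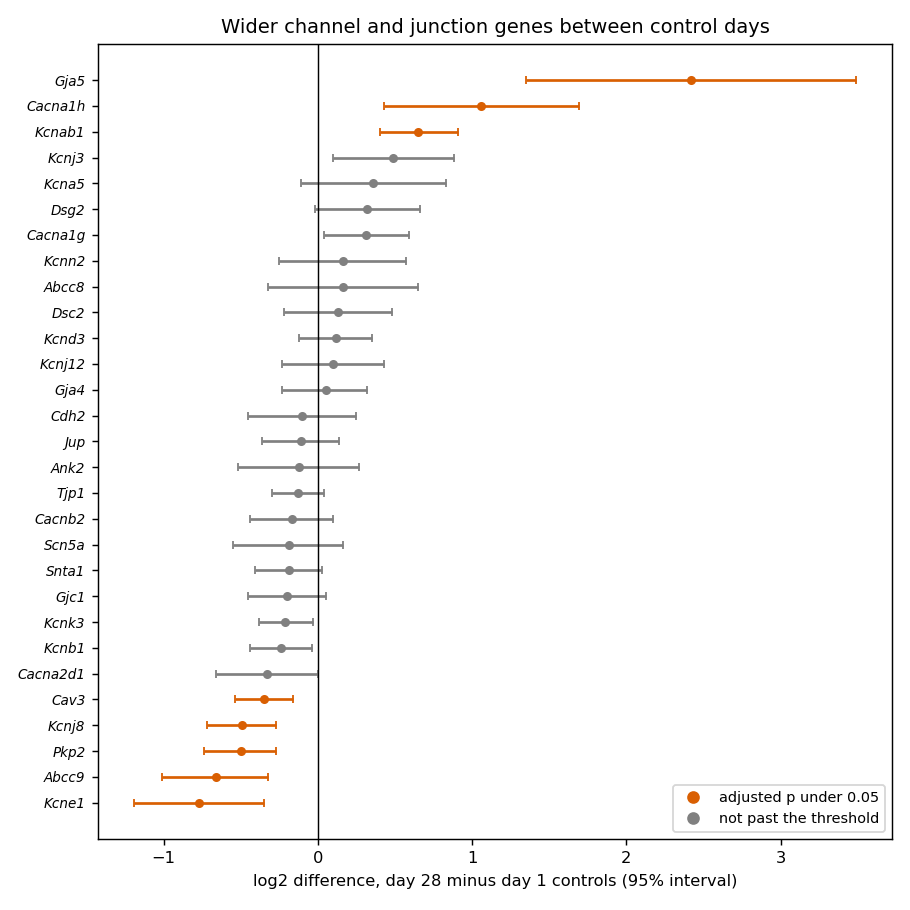
Log2 difference of day 28 minus day 1 controls (horizontal axis) for 29 of the 30 tested genes of the wider list (vertical axis), with 95% intervals as bars. Coloured points passed an adjusted p of 0.05, from Kcne1 at -0.77 to Gja5 at 2.42, and grey points did not.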

How the data were processed

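Heart RNA was in Cy5 and reference RNA in Cy3 on all 22 arrays, without dye swaps, per the labels, which give RNA integrity numbers of 7 or more. Scanner files as deposited give an unnormalized median intensity for each spot and its local background. Their log10 ratio came from Agilent Feature Extraction 10.7.3.1, per the file headers, while the submitters' processing notes name 9.5.3.1. The series matrix that the authors deposited is on a log2 scale, by a method not given in the sources used here, with array medians from -0.0362 to -0.0207. It correlated at r = 0.992 to 0.998 with loess ratios made without background subtraction.

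Median intensities were corrected with normexp (offset 50), fitted without spots marked for uneven background, and normalized within arrays by loess, using R 4.3.3, limma 3.58.1 and the data.table package (1.17.8). Control spots had weight 0, and 0.299% of spots were left out. Kept were 19275 probes with Cy5 well above background on at least 5 of 22 arrays. The kept probe of highest mean Cy5 stood for its gene. Of 41174 probes, 23374 matched a symbol in the RefSeq gene list. A limma model with the 4 group means and eBayes was run over 15503 genes, with Benjamini-Hochberg adjustment at 0.05. The replicate is the mouse. On simulated data for the day 1 comparison (15314 genes), 100 genes were changed by 0.5 and 100 by 1 in log2. Of these, 71% of changes of 0.5 and 97% of changes of 1 were recovered. Noise was drawn independently for each gene and array, without slide, scan day or cell type differences. These shares check the procedure and are not the power of the member tests. Correlations used 100000 permutations within groups. Figures were drawn with Python 3.11.15 and matplotlib 3.10.9.

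The members and gene lists were chosen with earlier results of these data known. Named were all members, the 3 genes most alike to each, up to 4 genes of the wider list with the smallest p in each comparison and 5 genes that check the tissue. Of the genes picked from the wider list, 1 is counted but not reported here. Alternatives changed the background correction, normalization, filter, probe choice, eBayes settings, array weights, slide or scan day as a block, and the arrays included.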

Additional observations from a re-analysis of the deposited data

Results flagged for a closer look

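Of 28 gene and group combinations looked at, 1 held a mouse far from the others. For Hcn2, the pacemaker channel gene, nano-TiO2 day 1 replicate 1 read 0.92 in log2 heart over reference, while the next highest of its 5 mice read 0.53. That gap was 0.758 of the whole range of the group. Chance alone marks about 1 in 20 groups in this way. The same array was 1 of the 3 with the fewest atrial markers above background (5 of 7), and whether this bears on its Hcn2 value was not tested.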

How the results depend on the processing

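At day 1, at day 28 and for the difference between these effects, 0 of 7 members passed under every alternative run, with 1 array left out in turn included. Of all genes tested, at most 40, 3 and 311 passed in these comparisons, in that order. Differences that turned sign follow, none of them past the threshold as reported, and the cause was not tested. Most lay near 0, but Abcc9 in the difference between effects was 0.70 as reported (adjusted p = 0.169), Kcnj8 at day 1 was -0.26, Kcnq1 at day 1 was 0.21 and Gja1 in the difference between effects was 0.28. For nano-TiO2 at day 1, Kcnip2 was -0.62 with plain background subtraction, -0.02 with median centring, -0.32 with the scanner log ratios, -0.10 with Cy5 alone, -0.14 with array weights, -0.03 without the 3 arrays of fewest atrial markers and -0.29 without the 2 dimmest arrays. Kcnd2 was 0.41 with normexp on all spots, 0.12 with median centring, 0.02 with the mean of its probes, 0.05 on its second probe, 0.01 with slide as a fixed block and 0.05 without the 3 arrays of fewest atrial markers. Kcnq1 was -0.05 without the 2 dimmest arrays, and Kcnj11 was -0.22 with plain subtraction, -0.33 with scanner log ratios and -0.04 with Cy5 alone. Hcn2 was 0.06 with normexp on all spots and 0 with median centring, and Gja1 0.12 and 0.21. Kcnj8 was 0.17 with normexp on all spots, 0 with median centring and 0.23 with scanner log ratios. For day 28, Kcnq1 was -0.07 with normexp on all spots, -0.07 with median centring and -0.10 without the 3 arrays of most liver or lung transcripts. Kcnh2 was 0.01 with plain subtraction, 0.01 with scanner log ratios, 0 in the series matrix and 0.04 with Cy5 alone, and Kcnj11 was -0.03 with median centring. For the difference between effects, Gja1 was -0.10 with median centring and Abcc9 -0.03 on a further probe. Between control days, Kcnd2 was -0.02 with scaling between arrays, -0.17 with Cy5 alone, -0.04 on its second probe, 0 with slide as a fixed block and -0.01 without the dimmest arrays. Kcnq1 was 0.01 without background subtraction, 0.12 with median centring and 0.12 without the arrays of most liver or lung transcripts. Kcnj11 was -0.14 with plain subtraction, -0.42 with scanner log ratios, -0.02 with scaling, -0.18 with Cy5 alone, -0.01 with array weights and -0.03 without the dimmest arrays. With median centring the median over all genes moved to 0.17 at day 1, -0.10 at day 28, -0.27 for the difference and 0.13 between control days, so the Gja1 difference at day 1 was 0.21 beside a shift of 0.17. With 1 array left out in turn, reversals lay within -0.14 to 0.15 (Kcnip2, day 1), -0.07 to 0.02 (Kcnd2, day 1), -0.17 to 0 (Hcn2, day 1), -0.09 to 0.06 (Gja1, day 1), -0.02 to 0.18 (Kcnq1, day 28), -0.06 to 0.01 (Kcnh2, day 28), and between control days -0.01 to 0.16 (Kcnd2), -0.17 to 0.06 (Kcnq1) and -0.03 to 0.08 (Kcnj11). Between control days the count of members that passed was 1 with plain subtraction (Gja1, -0.43, against 10.4% of all genes), 4 with scanner log ratios (Kcnip2 -1.12, Kcnq1 -0.29, Hcn2 -0.71 and Gja1 -0.49, against 24.9% of all genes), 1 in the series matrix (Gja1, -0.39, against 11.3%), 2 with Cy5 alone (Kcnip2 -0.40 and Hcn2 -0.27, against 10.2%), 2 with array weights (Kcnip2 -0.53 and Hcn2 -0.33, against 16.5%) and 3 without the 2 dimmest arrays. It ran from 0 to 1 with 1 array left out in turn, against 958 to 2069 of all 15503 genes. The offset of 50 was not added to the scanner log ratios, and its part in the counts with those ratios was not tested. Between control days, these shares of all genes also stand beside the counts of the wider list. Of that list, 1 gene passed at day 1 without the 3 arrays of fewest atrial markers (Gja5, 2.01), against 40 of all 15503 genes. For the difference between effects 1 passed with array weights (Kcnab1, -0.76), against 69 of all genes. Without the 3 arrays of fewest atrial markers 1 passed (Gja5, -2.37), against 95 of all genes. With 1 array left out 0 to 3 passed, against 0 to 311 of all genes. Between control days 0 of 30 passed with normexp on all spots (5 at unadjusted p under 0.05; 0.51% of all genes passed), 2 with plain subtraction (1 higher, 1 lower), 0 with median centring (6 at unadjusted p under 0.05; 0.561% of all genes passed), 14 with scanner log ratios (4 higher, 10 lower), 0 with slide as a fixed block, 0 without the arrays of most liver or lung transcripts, and 6 to 9 with 1 array left out. Scaling between arrays gave 3 higher and 3 lower. Cacna1h lost its call when any of 6 control arrays was left out (0.96 to 1.07), Cav3 without day 1 control replicate 2 (-0.31) and Kcne1 without day 1 control replicate 4 (-0.67). No paired analysis was possible by replicate number because the labels give none that the groups share. Slides, several of which hold arrays of both groups, were used as a block instead, and with slide as a fixed block 0 of 7 members passed in any comparison. Signal over background limits what can be said of Kcnj2, Kcnip2 and Hcn2.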
